A study of Homo sapiens with 16 samples.

Results

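The H3K36 methyltransferases examined here are 8 genes, SETD2, NSD1, NSD2, NSD3, ASH1L, SETD3, SMYD2 and SETMAR, picked by name from the 58884 genes of an RNA-seq table as the enzymes credited with methylating H3K36, a lysine in the tail of histone H3. All 8 were found once each, and all 8 passed the filter of a mean of at least 0.5 TPM (a transcript level scaled for length and library) over the 6 libraries, which 16300 genes passed. The cells were wild type 293T, a line derived from human embryonic kidney, given a pool of scramble siRNA, of SETD2 siRNA or of hnRNP L siRNA for 72 h before RNA was extracted, with 2 libraries for each siRNA. Replicates are numbered 2 and 3 for SETD2 siRNA but 1 and 2 for scramble and hnRNP L siRNA, and the labels do not tie a library to a culture. The reporting summary of the study calls the replicates of its sequencing experiments biologically independent. The comparison asks whether losing the SETD2 transcript was accompanied by a change in the other enzymes of the same residue.

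Methylation of H3K36 is built up in steps by different enzymes. The NSD proteins and ASH1L place the monomethyl and dimethyl marks, and SETD2, which rides on elongating RNA polymerase II, adds the trimethyl mark over gene bodies. SETD3, SMYD2 and SETMAR carry SET domains and were also credited with H3K36 methylation, but they have other substrates, and SETD3 is best known as the enzyme that methylates a histidine of actin. hnRNP L, the target of the other siRNA, is a splicing regulator that binds CA-rich RNA, and one that the study examined as a partner of SETD2.

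Library totals of TPM are fixed, so TPM keep neither depth nor counting error. VIM and NEFM, which 293T cells are known to express, had between 184 and 941 TPM and PAX2 had 1.65 to 2.79 TPM, while 5 of 6 markers of leukocytes, hepatocytes, endothelium and fibroblasts had at most 0.40 TPM and COL3A1 had 0.97 to 1.22 TPM. The 37 mitochondrially encoded genes took 17.52% of the TPM in scramble replicate 1 and 6.7% to 10.86% in the other 5 libraries. HNRNPL, the target of the second siRNA, had 341.04 and 457.16 TPM in the scramble libraries against 25.04 and 28.81 TPM with hnRNP L siRNA. Nothing in these bulk libraries separates less RNA in every cell from fewer cells that keep the transcript.

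With scramble siRNA the 8 transcripts spanned a range from 4.21 to 44.45 TPM. NSD3 (44.45 ± 3.51 TPM, SD, n = 2) and NSD2 (40.11 ± 3.66 TPM) led the order, and the values of their libraries overlapped. SETD3 followed at 31.26 ± 4.18 TPM and SMYD2 at 21.09 ± 2.03 TPM, both apart from their neighbours in the order. NSD1 (13.29 ± 1.57 TPM) and SETD2 (12.54 ± 1.19 TPM) could not be told apart by their library values. SETMAR (5.92 ± 0.50 TPM) and ASH1L (4.21 ± 0.86 TPM), a very large protein of the Trithorax group, closed the list. Among the tested genes ordered by their mean with scramble siRNA, NSD3 stood at the 82.12th percentile, SETD2 at the 55.3rd and ASH1L at the 32.9th. NSD2 and NSD3 together made up 51% and 46.76% of the summed TPM of the 8 genes in the scramble libraries, whereas SETD2 made up 7.61% and 6.88%.

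**Figure D1:**
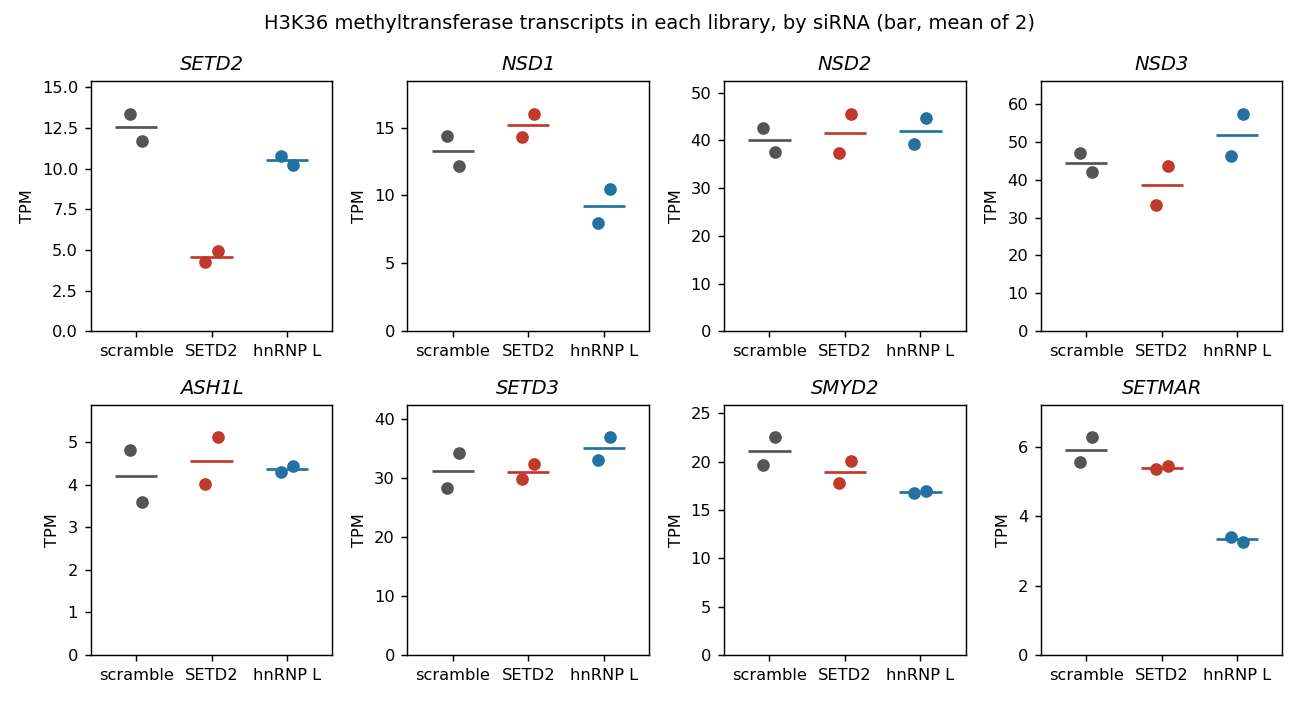
Each panel plots 1 gene, with TPM on the vertical axis from 0 and the siRNA on the horizontal axis. Points are single libraries and bars are the means of 2. SETD2 drops to 4.24 and 4.91 TPM with SETD2 siRNA, SETMAR to 3.41 and 3.25 TPM with hnRNP L siRNA, and the libraries of NSD2 and ASH1L overlap across all 3 siRNAs.

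SETD2 (ENSG00000181555, chromosome 3 of hg38, 47016428 to 47164113, minus strand) was the only member called after SETD2 depletion. Its transcript had 13.38 and 11.7 TPM in the scramble libraries against 4.24 and 4.91 TPM with SETD2 siRNA. The groups were well apart, and the mean of the depleted libraries stood at 36.48% of the scramble level. The difference on the log2 scale was -1.36 (SE 0.13, 95% confidence interval -1.66 to -1.06, adjusted p = 0.00603 from limma), where fold changes are on the log2(TPM + 0.5) scale and a gene counts as called if its fold change exceeds 1.5 and its adjusted p lies under 0.05. By this rule 0.104% of all tested genes were called in this comparison and 0.0491% were called as lower. That is 9 genes higher and 8 lower (6 and 11 without the mitochondrially encoded genes). The study, with edgeR on protein-coding and lncRNA genes at the same cut-offs, reported more genes in each direction. Leaving out scramble replicate 1 (adjusted p = 0.162 from limma) or SETD2 siRNA replicate 2 (adjusted p = 0.082) ended the call, as did testing without the filter (adjusted p = 0.162), with log2 fold changes of -1.27, -1.27 and -1.36. The single library then left in a group was assumed to vary like the others.

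No change passed the test in the other 7 enzymes after SETD2 depletion. In limma 0 of the 7 were called, where 0.104% of all tested genes were called. At an unadjusted p under 0.05 the count was also 0, a level that 13.1% of all tested genes reached. With 7 genes, 0 is near both shares. Their median log2 fold change was -0.0002, beside 0.01 over all tested genes, and 3 of the 7 were positive. The groups of libraries overlapped in 6 of the 7, the exception being SETMAR, and 43.5% of all tested genes had groups that did not overlap.

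Among the dimethyl enzymes, NSD1, whose loss causes the overgrowth disorder Sotos syndrome, had 14.4 and 12.18 TPM in the scramble libraries against 14.29 and 16.03 TPM with SETD2 siRNA. One depleted library lay between the scramble libraries and the other above both, and the log2 fold change of 0.19 (SE 0.15, adjusted p = 0.632 from limma) had a 95% interval, as a fold, of 0.892 to 1.45. NSD2, which is overexpressed through a translocation in a subset of multiple myeloma, had 42.7 and 37.52 TPM in the scramble libraries against 37.39 and 45.61 TPM with SETD2 siRNA. These values are interleaved, and the interval of the fold was 0.84 to 1.267 (adjusted p = 0.909 from limma). NSD3, the third NSD enzyme, had 46.93 and 41.96 TPM in the scramble libraries against 33.36 and 43.72 TPM with SETD2 siRNA. One of its depleted libraries was the lowest of the 4 and the other lay within the scramble range, with an interval of 0.676 to 1.1 (adjusted p = 0.579 from limma). ASH1L had 4.82 and 3.6 TPM in the scramble libraries against 4.02 and 5.11 TPM with SETD2 siRNA, with an interval of 0.817 to 1.423 (adjusted p = 0.824 from limma). Its libraries with the 2 siRNAs overlapped.

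The remaining 3 enzymes were as close to their scramble levels. SETD3 had 28.3 and 34.21 TPM in the scramble libraries against 29.81 and 32.47 TPM with SETD2 siRNA, so that both depleted libraries lay inside the scramble range (interval of the fold 0.823 to 1.215, adjusted p = 1 from limma). SMYD2, which also methylates lysines of p53, had 19.65 and 22.52 TPM and then 17.82 and 20.08 TPM, which overlapped (interval 0.749 to 1.085, adjusted p = 0.614 from limma). SETMAR, a SET domain fused to a transposase of mariner origin, had 5.56 and 6.27 TPM and then 5.35 and 5.45 TPM, with both depleted libraries just under both scramble libraries (interval 0.744 to 1.14, adjusted p = 0.734 from limma).

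Over the 7 enzymes, under the reported settings, the highest upper bound was 1.45, for NSD1, and the lowest lower bound was 0.676, for NSD3. These are intervals of single genes and do not cover all 7 at once. They leave room for changes of the size seen, and a p that misses the threshold does not show that a level stayed the same. Summed over NSD1, NSD2, NSD3 and ASH1L, the libraries had 108.85 and 95.26 TPM under the scramble siRNA pool, 89.06 and 110.47 TPM with SETD2 siRNA, and 97.78 and 117 TPM with hnRNP L siRNA. The 3 ranges overlap. The ratio of SETD2 to this sum was 0.123 in both scramble libraries, 0.0476 and 0.0444 with SETD2 siRNA, and 0.11 and 0.0875 with hnRNP L siRNA.

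**Figure D2:**
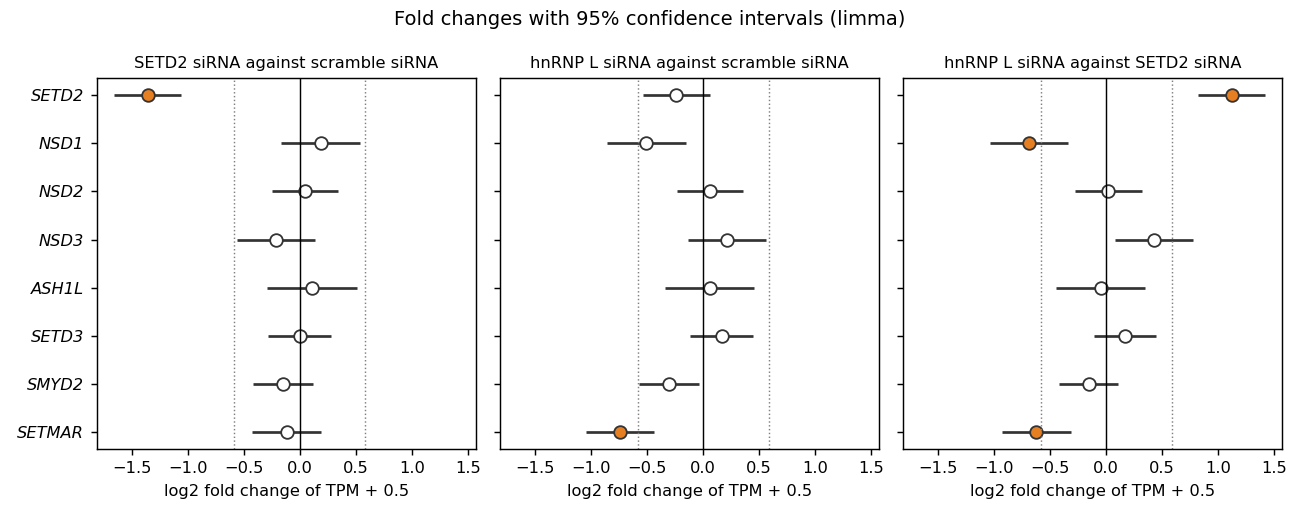
Points give the log2 fold change of TPM + 0.5 for each gene in 3 comparisons, with 95% confidence intervals from limma, and filled points mark called genes. Dotted lines stand at a fold change of 1.5. With SETD2 siRNA the intervals of all 7 enzymes other than SETD2 cross 0 and end inside the dotted lines.

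With SETD2 siRNA the order of the levels changed in 2 places. NSD2 (41.5 ± 5.81 TPM) stood before NSD3 (38.54 ± 7.33 TPM), although their libraries overlapped. SETD2 moved from the sixth place, next to NSD1, to the seventh, with 4.58 ± 0.47 TPM (SD, n = 2) beside 4.57 ± 0.77 TPM for ASH1L, whose library values overlapped with those of SETD2. SETMAR, at 5.4 ± 0.07 TPM, lay above both without overlap. With hnRNP L siRNA the order differed from that with scramble siRNA in 2 places. SETD2 (10.52 ± 0.40 TPM) stood before NSD1 (9.26 ± 1.76 TPM), although their libraries overlapped, and ASH1L (4.37 ± 0.09 TPM) stood before SETMAR (3.33 ± 0.11 TPM), with no overlap. NSD3 and NSD2 stayed the most abundant pair with every siRNA.

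**Figure D3:**
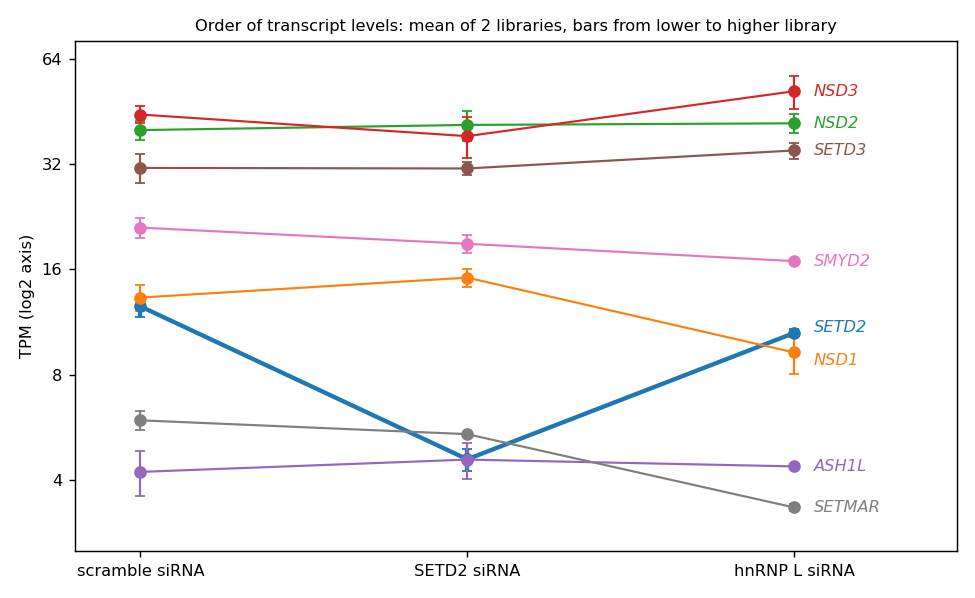
TPM on a log2 axis for the 8 genes with each siRNA, as the mean of 2 libraries with bars from the lower to the higher library. SETD2, drawn thicker, meets ASH1L at about 4.6 TPM with SETD2 siRNA, and SETMAR becomes the lowest of the 8 with hnRNP L siRNA.

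After hnRNP L depletion, SETMAR (ENSG00000170364, chromosome 3 of hg38, 4303332 to 4317265, plus strand) was the only member called, as lower. It had 5.56 and 6.27 TPM in the scramble libraries against 3.41 and 3.25 TPM with hnRNP L siRNA, groups that did not overlap, and a mean at 56.3% of the scramble level. The difference on the log2 scale was -0.74 (SE 0.14, 95% confidence interval -1.05 to -0.43, adjusted p = 0.0133 from limma). In this comparison 6.76% of all tested genes were called and 5.01% were called as lower, and 1 of 8 members is near that background. The reported scaling called 286 genes higher and 816 lower, whereas median-ratio scaling called 429 and 517 and moved the median over the tested genes from -0.08 to 0.005 on the log2 scale. SETMAR was called as lower under both. NEFM, one of the 293T markers, also rose here, by 1.21 on the log2 scale (adjusted p = 0.00166 from limma). SETMAR lies wholly within SUMF1, a gene of the opposite strand that encodes the enzyme activating sulfatases, with 0 bases of exon shared. SUMF1 had 6.32 and 6.67 TPM in the scramble libraries against 5.06 and 4.96 TPM with hnRNP L siRNA (log2 fold change -0.34, adjusted p = 0.125 from limma), and whether the counting used strand is not given in the sources used here. The call on SETMAR was lost without scramble replicate 1 or 2 (adjusted p = 0.0595 and 0.0628 from limma), without hnRNP L siRNA replicate 1 or 2 (0.1 and 0.089), with the replicate number as a block (0.0597), and without the filter (0.0617), with log2 fold changes from -0.82 to -0.66.

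NSD1 and SMYD2 also had lower values with hnRNP L siRNA but were not called. NSD1 (ENSG00000165671, chromosome 5, 177131830 to 177300213, plus strand) had 14.4 and 12.18 TPM in the scramble libraries against 8.01 and 10.5 TPM with hnRNP L siRNA. Its groups did not overlap, and the mean with hnRNP L siRNA stood at 69.64% of the scramble level, with a log2 fold change of -0.51 (SE 0.15, adjusted p = 0.0691 from limma). The adjusted p of NSD1 from limma was 0.0319 among protein-coding and lncRNA genes alone and 0.0315 with a block of crossed replicate numbers. It stayed above 0.05 in every other alternative, and the fold change fell short in both of these. SMYD2 had 19.65 and 22.52 TPM in the scramble libraries against 16.8 and 17 TPM with hnRNP L siRNA, also without overlap, with a log2 fold change of -0.31 (SE 0.12, adjusted p = 0.126 from limma). SETD2 had 10.8 and 10.24 TPM with hnRNP L siRNA, below both scramble libraries, and its interval of the fold was 0.688 to 1.042 (adjusted p = 0.269 from limma). The 972 tested genes with at least as much exon as ASH1L, with SETD2, NSD1, NSD2, NSD3 and ASH1L among them, had a median log2 fold change of -0.13 here. The 9107 with no more exon than SETD3, with SETD3, SMYD2 and SETMAR among them, had one of -0.04, and all tested genes one of -0.08. The part of length in these values was not tested. In the 8 members 3 had an unadjusted p under 0.05, all lower, where 28.4% of all tested genes reached that level and 20.3% did so as lower. The groups did not overlap in 4 of the 8 members, all lower, while 37.8% of all tested genes were lower without overlap.

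The other 4 enzymes had positive log2 fold changes after hnRNP L depletion and groups that overlapped. NSD3 had 46.22 and 57.43 TPM (log2 fold change 0.21, SE 0.15, adjusted p = 0.405 from limma) and SETD3 had 33.19 and 36.95 TPM (0.17, SE 0.12, adjusted p = 0.411). NSD2, at 39.25 and 44.64 TPM, and ASH1L, at 4.3 and 4.43 TPM, had log2 fold changes of 0.06 each. The median over the 8 members was -0.09, beside -0.08 over all tested genes.

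Set directly against each other, in the fit of all 6 libraries, the 2 depletions differed in 3 of the 8 members. Called genes were 6.84% of all tested genes here, with 2.15% called as higher with hnRNP L siRNA and 4.69% as lower, where median-ratio scaling called 453 genes higher and 472 lower in place of 350 and 765. SETD2, itself the target of 1 of the 2 siRNAs, was higher with hnRNP L siRNA than with SETD2 siRNA by 1.12 on the log2 scale (SE 0.13, adjusted p = 0.00303 from limma). Of the 7 other members 2 were called, both as lower. NSD1 was lower by a log2 difference of -0.69 (SE 0.15, adjusted p = 0.0264), with 8.01 and 10.5 TPM against 14.29 and 16.03 TPM. SETMAR was lower by a log2 difference of -0.62 (SE 0.14, adjusted p = 0.0239 from limma), with 3.41 and 3.25 TPM against 5.35 and 5.45 TPM. NSD3, at 46.22 and 57.43 TPM against 33.36 and 43.72 TPM, was higher by 0.43 (SE 0.15) without being called (adjusted p = 0.11 from limma). In a fit of the 4 compared libraries alone, without scramble libraries, SETD2, NSD1 and SETMAR were again called (adjusted p = 0.0121, 0.0454 and 0.0413 from limma). The call on NSD1 was lost without any 1 of the 4 libraries compared (adjusted p from 0.0591 to 0.195 in limma), as was that on SETMAR (0.119 to 0.142), and the call on SETD2 was lost without SETD2 siRNA replicate 2 (0.0505). Quantile normalization of the log2 values, rescaling without the mitochondrially encoded genes, omission of the variance trend and of the filter each ended the call on NSD1, and those that ended the call on SETMAR are given in the closing section.

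**Figure D4:**
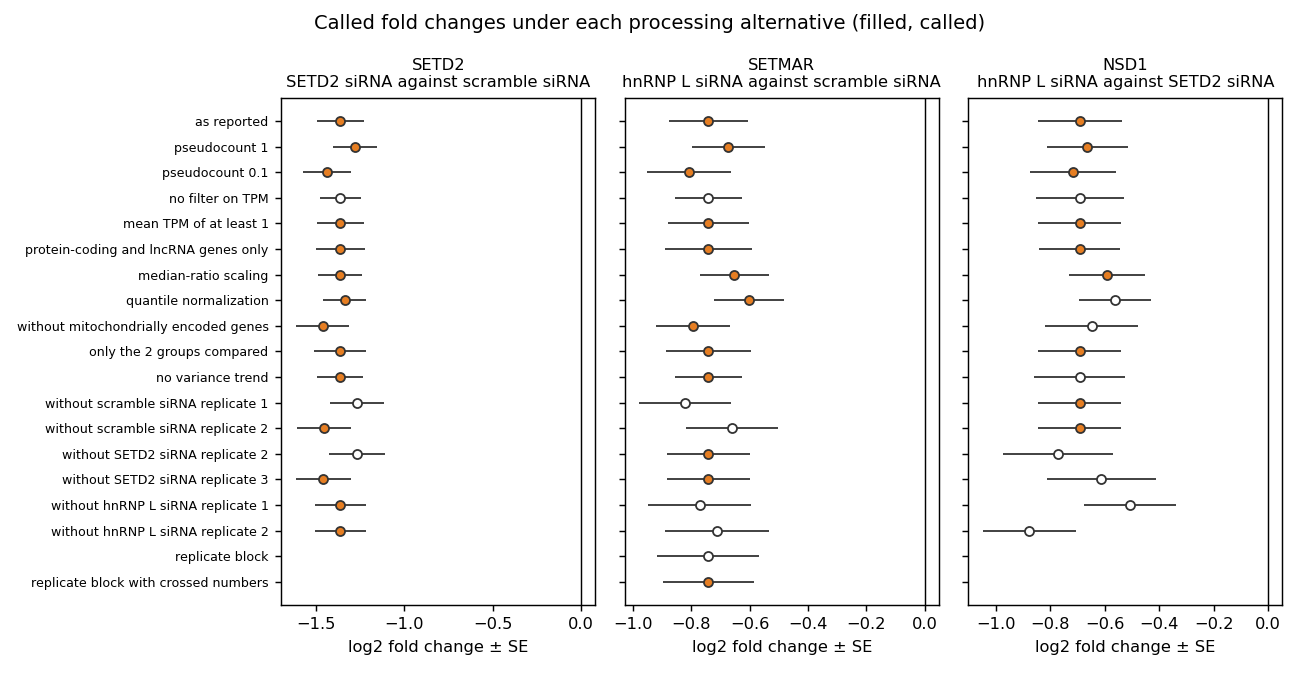
Log2 fold changes with standard errors for SETD2, SETMAR and NSD1 in 1 comparison each (SETD2 after SETD2 depletion, SETMAR after hnRNP L depletion, NSD1 between the depletions), under the reported settings and each alternative that changes the fit. Filled points are called. No point crosses 0, but the filters, the biotypes, the variance trend, the block and libraries that are not compared cannot move a point. In these comparisons the call on SETD2 is lost in 3 alternatives, on SETMAR in 6 and on NSD1 in 8.

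Since hnRNP L is known to bind CA repeats, the gene spans were searched on their own strand for runs of at least 6 CA units (CACACACACACA) in the hg38 sequence with GENCODE positions. Such a run was found in 5 of the 8 members, and the longest runs of SETD2, NSD2 and ASH1L are shown as examples, while those of NSD3 (20 units) and SETD3 (7 units) are not. Capitals mark the run, lower case its flanks, and all 3 are intronic and read 5′ to 3′ on the strand of the gene.
SETD2, chr3:47101589-47101644, minus strand: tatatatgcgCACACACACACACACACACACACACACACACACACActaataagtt
NSD2, chr4:1951435-1951534, plus strand: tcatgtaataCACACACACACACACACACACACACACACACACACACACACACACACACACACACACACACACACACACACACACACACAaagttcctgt
ASH1L, chr1:155556393-155556448, minus strand: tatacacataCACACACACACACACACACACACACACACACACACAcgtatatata
NSD1, SMYD2 and SETMAR, the 3 members with an unadjusted p under 0.05 after hnRNP L depletion, held no such run. Of tested genes within 20% of the length of NSD1, 92.8% held one, as did 53.5% for SMYD2 and 14% for SETMAR, the shortest member at 13.9 kb. For the 5 members with a run, these shares were 65.7% (SETD3), 79.9% (NSD2), 80.4% (NSD3), 88.5% (SETD2) and 97.3% (ASH1L), and over all tested genes with a position the share was 36.8%. NSD3 held 3 runs, ASH1L 6, of which 1 touches an exon, and SETD2, NSD2 and SETD3 held 1 each. A run is a match of letters and not a binding site, and its absence from these spans says nothing of whether hnRNP L binds the transcript.

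The other lysine methyltransferases offered a wider set of SET domain and related enzymes, 26 in all, for H3K4, H3K9, H3K27, H4K20 and H3K79 and for other substrates. After SETD2 depletion 0 of the 26 were called in limma, 2 were higher and 1 lower at an unadjusted p under 0.05, and the median log2 fold change was 0.11. Over all tested genes 0.104% were called and 13.1% reached that level, with a median of 0.01. After hnRNP L depletion 0 of the 26 were called, with 1 higher and 2 lower at that level and a median of 0.01, beside 6.76%, 28.4% and -0.08 over all tested genes. EZH1, a catalytic subunit of Polycomb repressive complex 2, and KMT2D, an H3K4 methyltransferase of enhancers, were called between the depletions, 2 of 26 where 6.84% of all tested genes were called. EZH1 had 16.75 and 17.13 TPM under the scramble siRNA pool, 11.96 and 10.55 TPM with SETD2 siRNA and 17.32 and 17.76 TPM with hnRNP L siRNA. Only the SETD2 siRNA libraries were low. Its log2 fold change after SETD2 depletion was -0.57 (SE 0.11, adjusted p = 0.129 from limma), and between the depletions it was 0.62 (SE 0.11, adjusted p = 0.0134). KMT2D had 18.94 and 15.82 TPM under the scramble siRNA pool, 22.43 and 26.36 TPM with SETD2 siRNA and 13.74 and 16.05 TPM with hnRNP L siRNA, with a log2 difference of -0.69 between the depletions (SE 0.14, adjusted p = 0.0181 from limma).

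The 5 demethylases of H3K36, which remove the marks that the methyltransferases place, had 0 calls in limma after either depletion. At an unadjusted p under 0.05, 0 differed after SETD2 depletion and 2 were lower after hnRNP L depletion, where 13.1% of all tested genes differed in the first comparison and 20.3% were lower in the second. KDM4A and KDM4C, which act on the trimethyl mark, had log2 fold changes of 0.19 and -0.28 after SETD2 depletion (adjusted p = 0.472 and 0.5) and of -0.29 and -0.43 after hnRNP L depletion (adjusted p = 0.122 and 0.14 from limma). KDM2B had a log2 fold change of 0.2 after SETD2 depletion (adjusted p = 0.461 from limma), and KDM2A, which acts on the dimethyl mark, one of -0.19 after hnRNP L depletion (adjusted p = 0.346).

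Among 8 partners of the enzymes, 0 were called in limma after SETD2 depletion, with 2 higher at an unadjusted p under 0.05, and HNRNPL was the one call after hnRNP L depletion, with a log2 fold change of -3.85 (SE 0.14, adjusted p = 8.48e-06). Of all tested genes, 0.104% were called and 13.1% reached that unadjusted level in the first comparison, and 6.76% were called in the second. SUPT6H, an elongation factor that travels with RNA polymerase II and outside the rule for named genes, picked here with its values in view, had 26.74 and 25.8 TPM in the scramble libraries against 17.52 and 19.42 TPM with hnRNP L siRNA. Its log2 fold change of -0.5 (SE 0.11, adjusted p = 0.029 from limma) passed the p threshold but not the fold change.

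**Figure D5:**
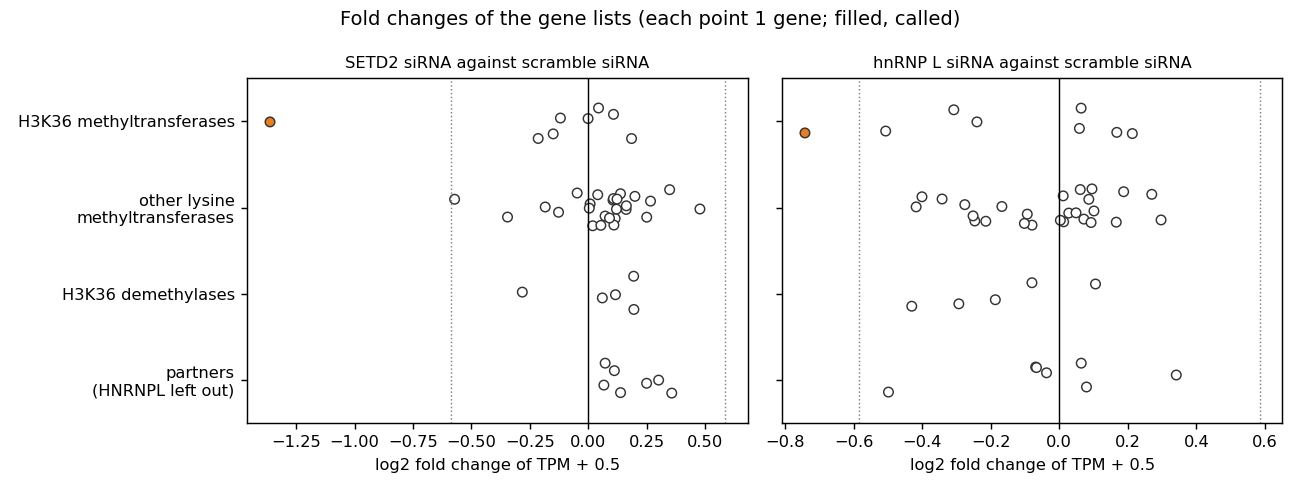
Each point is 1 gene of a list, placed by its log2 fold change of TPM + 0.5 after each depletion, with filled points called and dotted lines at a fold change of 1.5. The points of each list are spread vertically only for legibility, and HNRNPL, at -3.85 after its own siRNA, is left out. SETD2 and SETMAR are the only filled points.

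The tested genes whose pattern over the 6 libraries was most like that of SETD2 were sought by the root mean square difference of log2(TPM + 0.5) values centred on each gene. They were CENPW (0.185), AC005832.4 (0.211), AL133325.3 (0.237), AC005363.2 (0.24) and MIR222HG (0.27), where the median over all tested genes was 0.647. CENPW, which encodes a centromere protein, had 70.18 and 75.08 TPM under the scramble siRNA pool, 36.11 and 36.02 TPM with SETD2 siRNA and 77.91 and 71.75 TPM with hnRNP L siRNA. Of the 5 genes it alone was called after SETD2 depletion (log2 fold change -1, adjusted p = 0.00603 from limma), and 3 of the 5 are annotated as lncRNA. The genes were picked by these same library values, so their lower levels with SETD2 siRNA follow from the search. No other H3K36 methyltransferase was among them, which says little with 5 genes kept of 16300 tested.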

How the data were processed

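According to the methods and the labels, the authors aligned paired RNA-seq reads to hg38 with Ensembl 96 gene models with STAR 2.6.1c. RSEM 1.3.0 then gave the TPM of each gene that the authors deposited. Biotypes and positions came from GENCODE release 44, on the same build. The TPM were taken as log2(TPM + 0.5) and genes with a mean of at least 0.5 TPM were tested, 16300 in all. limma 3.58.1 in R 4.3.3 was fitted with 1 mean per siRNA on all 6 libraries, with a variance trend, because TPM are not counts and the study's edgeR test could not be run. Adjusted p are Benjamini-Hochberg over all tested genes. With 2 libraries in each group, 0.333 is the smallest two-sided p an exact permutation test of 1 gene can reach. The fit was also run on simulated data drawn independently for each gene and library. Such data hold no shifts shared by the genes of a library, so behaviour under such shifts was not tested.

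The members and the gene lists were chosen with earlier results of these data known. Named are the 8 members, HNRNPL, the called members of each list or, with none called, the 3 with the smallest adjusted p after each depletion, and the 5 genes most like SETD2. The lists' partners were POLR2A, SUPT6H, IWS1, HTT, SPOP, HNRNPL, MORF4L1 and RBBP4, after 1 gene first put in this list was left out. The CA repeat search was added after the values were seen. The 10 ChIP-seq samples were not analysed here.

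Alternatives were other pseudocounts, filters, scalings and biotypes, only the 2 groups compared, no variance trend, other fold changes, fits lacking 1 library, and the replicate number as a block. The block was run for hnRNP L against scramble siRNA alone, as the number 2 is the one that SETD2 siRNA has in common with the others.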

Additional observations from a re-analysis of the deposited data

How the results depend on the processing

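Every log2 fold change of SETD2, NSD1, NSD3, SMYD2 and SETMAR kept its sign under the alternatives run. These were 16 for the comparisons with SETD2 siRNA and 18 for hnRNP L against scramble siRNA. Many of them cannot move a log2 fold change, so the sign was fixed there. Those are the filters, the biotypes, the variance trend, the block and leaving out libraries that are not compared. Under the other alternatives the estimates moved. After SETD2 depletion they ranged from 0.0695 to 0.302 for NSD1 and from -0.406 to -0.0213 for NSD3. The signs that turned were all of genes near 0 that were never called. After SETD2 depletion NSD2 (0.04) was -0.0521 without the mitochondrially encoded genes and ranged from -0.0971 to 0.186 with single libraries left out, ASH1L from -0.0793 to 0.297 and SETD3 from -0.135 to 0.134. After hnRNP L depletion NSD2 ranged from -0.0284 to 0.156 and ASH1L from -0.129 to 0.247. Between the depletions NSD2 ranged from -0.122 to 0.161 and ASH1L from -0.206 to 0.106, and ASH1L was 0.0462 with median-ratio scaling and 0.0455 with quantile normalization. The cause was not tested.

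After SETD2 depletion 17 genes were called, 1 of them a member. The count was 1 without the filter (0 members), 27 at a mean of at least 1 TPM, 60 among protein-coding and lncRNA genes, and 8 to 38 with single libraries left out (0 to 1 members). After hnRNP L depletion 1102 genes were called, 1 of them a member. The count was 235 without the filter (0 members), 1826 without the fold change and 291 above a fold change of 2 (0 members), and 172 to 821 with single libraries left out (0 to 1 members). The replicate block gave 715 genes and 0 members. Same-numbered scramble and hnRNP L siRNA libraries deviated with a correlation of -0.126 over genes, and a block with the numbers crossed, added once the data had been seen, gave 1406 genes and 1 member. Between the depletions 1115 genes were called, 3 of them members. The count was 186 without the filter (1 member), 1753 without the fold change, 299 above a fold change of 2 (1 member), and 127 to 1006 with single libraries left out (0 to 3 members), and 1 member was called with quantile normalization or without the mitochondrially encoded genes. The call on SETMAR between the depletions was lost with a pseudocount of 1 (log2 difference -0.56), with median-ratio scaling (-0.53) and quantile normalization (-0.53), where the adjusted p from limma stayed under 0.05 and the fold change fell short, without the mitochondrially encoded genes (-0.58), and without the filter (adjusted p = 0.084). The summed TPM of NSD1, NSD2, NSD3 and ASH1L with scramble siRNA was 102.1 TPM and 117.7 TPM without the mitochondrially encoded genes. After SETD2 depletion this rescaling lowered their log2 fold changes to 0.09, -0.05, -0.31 and 0.02 in that order, with none called. The number of libraries per group, 2, limits every value, and TPM give no depth.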

Other observations

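The gaps between the libraries of a group differed between genes with much and with little exon in total, called long and short genes here. SETD2, NSD1, NSD2, NSD3 and ASH1L have 13.8 to 21.8 kb of exon in all their annotated transcripts together, and all 5 were lower in scramble replicate 2 than in replicate 1, whereas SETD3, SMYD2 and SETMAR, with 3.2 to 5.2 kb, were all higher in replicate 2. In the SETD2 siRNA libraries all 8 were higher in replicate 3 than in replicate 2. In the hnRNP L siRNA libraries SETD2 and SETMAR were lower in replicate 2 than in replicate 1, and the other 6 were higher, so that there the members did not divide by length. Of the 972 tested genes with at least as much exon as ASH1L, 38.6% were higher in scramble replicate 2 and 83.7% in SETD2 siRNA replicate 3, and of the 9107 with no more than SETD3 these shares were 67.9% and 55.4%. In hnRNP L siRNA replicate 2, 77.8% of the long genes and 58.9% of the short genes were higher than in replicate 1. Averaged over the groups, the 972 long genes had a median log2 fold change of -0.02 after SETD2 depletion and of -0.13 after hnRNP L depletion. For the 9107 short genes these medians were 0.05 and -0.04. The part of exon length in the members' values was not tested.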
